A study of Homo sapiens with 6 samples.

Results

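Chromatin accessibility was examined at the nuclear factor I (NFI) genes NFIA, NFIB, NFIC and NFIX in A375 cells, a human melanoma line, with and without overexpression of HMGB2, a chromatin protein with HMG boxes that binds and bends DNA. A peak was taken as a member if its centre lay in the GENCODE release 44 body of 1 of these genes, or if it was intergenic and the nearest protein-coding start site belonged to 1 of them. This gave 130 of the 152800 peaks in the table, and all 130 were among the 150117 peaks tested. The assay was ATAC-seq, in which the Tn5 transposase cuts and tags open DNA, so that the read count of a peak measures how accessible it is. The comparison was of 3 libraries from empty vector cells with 3 libraries from HMGB2 overexpression (HMGB2 OE) cells, and it asks whether raised HMGB2 went with altered accessibility at these loci. Both were A375 cells. Per the study's methods, the HMGB2 OE line was made by lentiviral transduction and drug selection, and the 3 libraries of each condition were technical replicates of an experiment that was not repeated. The p-values below therefore measure the spread between libraries only, and a difference between the lines themselves cannot be told apart from an effect of HMGB2.

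NFI proteins are transcription factors that bind DNA as dimers, and the family recognizes a palindrome made of a TTGGC half-site and its reverse complement GCCAA. They are known for their part in glial and neuronal differentiation, in stem cell maintenance in the hair follicle and in opening chromatin in small cell lung cancer. NFIA is best known for the switch from neurogenesis to gliogenesis, NFIB for lung and brain development and for the regulation of melanocyte stem cells, NFIC for tooth root formation, and NFIX for muscle and brain development.

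The libraries held between 26910189 and 45645294 counts in peaks. As a check of the labels, the pair of peaks over HMGB2 coding exons rose from 32.0 ± 15.7 to 98.4 ± 5.31 and from 28.7 ± 6.28 to 63.0 ± 10.6 normalized counts (mean ± SD, n = 3), whereas the HMGB2 promoter peak had 1986 ± 223 and 1973 ± 59.0. Reads from a transduced coding sequence and from the endogenous exons cannot be told apart. Of 6 melanocytic markers, SOX10, MITF and PMEL had promoter peaks, at 859 to 3797 normalized counts in empty vector cells, and MLANA, TYR and DCT had none in the table. Of the markers of other cell types, CDH1 (epithelial), PTPRC (blood) and CDH5 (endothelial) had no promoter peak, whereas the epithelial KRT14 (602), EPCAM (221) and KRT5 (126), the blood marker CD3E (254) and the endothelial PECAM1 (27.7) had one, with the normalized count in empty vector cells in parentheses. The part of other cell types in the results was not tested.

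The NFI genes differ widely in size and in how their peaks are spread. NFIA (ENSG00000162599.18) spans 597.5 kb at chr1:60865259-61462788 on the plus strand and had 48 peaks, 36 in its body and 12 intergenic. NFIB (ENSG00000147862.18), at chr9:14081843-14398983 on the minus strand, had 41 peaks, 25 in its body and 16 intergenic. Both other genes lie on chromosome 19 on the plus strand. NFIC (ENSG00000141905.19; chr19:3314403-3469217) had 25 peaks and NFIX (ENSG00000008441.19; chr19:12995475-13098796) had 16. No member peak lay in the body of another protein-coding gene. By the position of the centre, 88 of the 130 peaks were intronic, 37 intergenic, 2 in untranslated exons, 2 in non-coding exons and 1 in a coding exon, and 28 lay within 3 kb of a start site of their own gene.

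The sequences of 5 sites are shown first. The first 4 are the middle 300 bases (hg38) of peaks with an edgeR adjusted p-value below 0.05. Of these, only the first also passed the 1.5-fold limit used for calls below. The last is the 250 bases upstream of an NFIB start site, from RefSeq (GRCh38.p14). It overlaps the most accessible NFI promoter peak, which did not pass the test (adjusted p = 0.097). All 5 lie outside annotated exons of their genes. Capitals mark the NFI half-site (TTGGC or its reverse complement GCCAA) and the AP-1 word (TGACTCA or TGAGTCA, searched on both strands).
NFIB intronic fall window, chr9:14326441-14326740, plus strand: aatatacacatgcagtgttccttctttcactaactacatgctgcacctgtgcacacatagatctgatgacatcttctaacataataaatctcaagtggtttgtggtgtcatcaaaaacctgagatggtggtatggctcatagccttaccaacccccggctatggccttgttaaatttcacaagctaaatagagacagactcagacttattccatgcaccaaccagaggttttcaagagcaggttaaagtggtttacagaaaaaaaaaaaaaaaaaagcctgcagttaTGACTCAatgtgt
NFIB strong intronic fall window, chr9:14278346-14278645, plus strand: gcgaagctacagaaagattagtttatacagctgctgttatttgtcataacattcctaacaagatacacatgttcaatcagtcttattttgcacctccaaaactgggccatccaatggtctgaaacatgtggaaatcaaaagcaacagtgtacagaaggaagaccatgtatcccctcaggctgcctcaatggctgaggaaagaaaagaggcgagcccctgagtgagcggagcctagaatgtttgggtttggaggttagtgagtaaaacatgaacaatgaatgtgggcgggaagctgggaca
NFIX upstream rise window, chr19:12985865-12986164, plus strand: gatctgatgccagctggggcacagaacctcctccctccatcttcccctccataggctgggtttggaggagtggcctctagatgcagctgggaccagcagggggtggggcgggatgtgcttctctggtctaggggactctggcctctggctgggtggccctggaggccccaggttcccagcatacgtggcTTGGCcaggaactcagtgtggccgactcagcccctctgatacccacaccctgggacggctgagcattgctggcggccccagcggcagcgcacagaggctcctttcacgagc
NFIX intronic fall window, chr19:13037191-13037490, plus strand: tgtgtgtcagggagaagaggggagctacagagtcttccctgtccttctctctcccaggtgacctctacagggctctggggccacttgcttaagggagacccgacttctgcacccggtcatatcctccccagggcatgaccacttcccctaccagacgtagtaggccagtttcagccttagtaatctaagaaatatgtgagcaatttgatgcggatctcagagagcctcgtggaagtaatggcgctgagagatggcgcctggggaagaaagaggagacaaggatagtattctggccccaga
NFIB promoter, chr9:14322388-14322637, minus strand: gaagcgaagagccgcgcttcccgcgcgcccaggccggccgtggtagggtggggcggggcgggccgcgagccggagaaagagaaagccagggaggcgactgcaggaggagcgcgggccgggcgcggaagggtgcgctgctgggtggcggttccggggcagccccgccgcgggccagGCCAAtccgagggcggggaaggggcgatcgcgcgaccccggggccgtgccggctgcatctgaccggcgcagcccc
An AP-1 word stood in the window of the NFIB intronic fall, and a half-site in the NFIX upstream rise and in the NFIB promoter. Over all tested peaks, 45.0% of such 300-base windows held a half-site and 24.9% an AP-1 word. Among the 250-base upstream sequences of 35116 RefSeq promoters, 40.8% held a half-site. The NFIB promoter was rich in G and C, at 78.4% with 36 CpG dinucleotides, while the NFIB windows had 39.3% and 44.7%.

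Across the family, most peaks differed little between the conditions. Calls required a fold change of 1.5 or more and an edgeR p-value, adjusted by the Benjamini-Hochberg method, below 0.05. Of the 130 NFI peaks 1 rose and 1 fell, against 1.87% higher and 1.44% lower over all tested peaks. With the adjusted p-value alone, 5 rose and 3 fell, against 3.44% and 3.03%. The counts were thus near the background in both directions. The median log2 fold change (HMGB2 OE over empty vector) was 0.02 for NFI peaks and -0.005 for all tested peaks, and 91 of 130 (70.0%) lay within 0.3 of 0, compared with 71.4% of all peaks. In 15 NFI peaks every HMGB2 OE library was above every empty vector library and in 18 every one was below, beside 12.6% and 12.5% of all peaks.

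**Figure D1:**
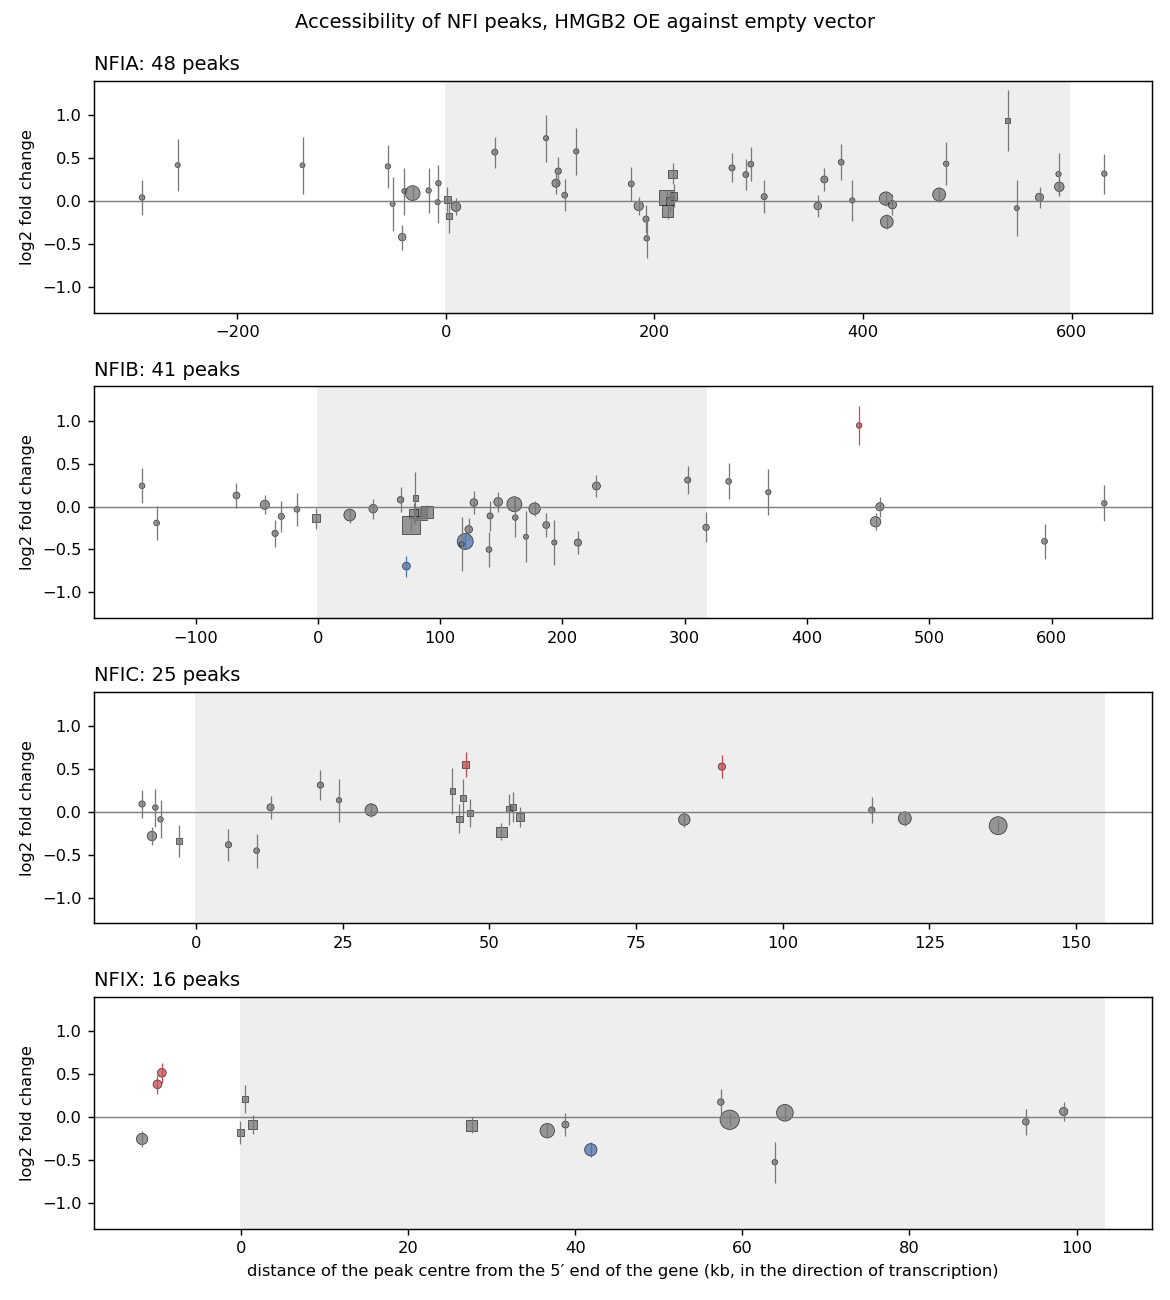
Log2 fold change of each NFI peak (vertical axis, bars ± SE) against the distance of its centre from the 5′ end of its gene in kb (horizontal axis); grey shading is the gene body, squares are peaks within 3 kb of a start site of the gene, circles other peaks, and marker area grows with the mean normalized count. Red marks the 5 peaks that were higher, and blue the 3 that were lower, with adjusted p below 0.05; the other peaks are grey, and most points lie close to 0 in all 4 genes.

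The 4 genes had different medians, though few of their peaks passed the test. NFIA peaks had a median log2 fold change of 0.09, with 35 of 48 above 0, and none was called. In NFIB the median was -0.09, with 14 of 41 above 0, 1 called higher and 1 called lower. NFIC had a median of 0.02 and 13 of 25 peaks above 0, and NFIX a median of -0.07 with 6 of 16 above 0, without a call in either gene at the 1.5-fold limit. Non-member peaks within 5 Mb had a median of 0.07 around NFIA (506 peaks), -0.01 around NFIB (313), -0.05 around NFIC (1080) and -0.08 around NFIX (1005). Of these surrounding peaks, 59.3%, 48.2%, 41.8% and 33.1% were above 0, in the same order of genes. Over all tested peaks the share above 0 was 49.2%.

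Counts summed over all peaks of a gene gave a value for the whole locus. The NFIA sum was 10496, 10473 and 10096 in the empty vector libraries and 11045, 11006 and 10767 in the HMGB2 OE libraries. All 3 HMGB2 OE libraries were above all 3 empty vector libraries, but the log2 difference was 0.08 (95% interval 0.001 to 0.16) and the adjusted p was 0.190. For NFIB the sum was 12630, 12775 and 12508 against 11847, 12132 and 11587. Here all 3 HMGB2 OE libraries lay below, with a log2 difference of -0.09 (95% interval -0.17 to -0.01; adjusted p = 0.134). Such separation of the libraries was seen in 15.4% of all gene sums in the upward and 13.6% in the downward direction. NFIC had 7155, 6885 and 7012 against 6841, 6755 and 6949, and NFIX had 8356, 8371 and 8498 against 8466, 8161 and 8292. The libraries overlapped in both, at log2 differences of -0.03 (95% interval -0.11 to 0.04; adjusted p = 0.584) and -0.02 (-0.09 to 0.06; adjusted p = 0.798). None of the 4 sums passed the test, where 5.74% of 17883 gene sums were called higher and 3.51% lower. Relative to the median of its surrounding non-member peaks, the NFIA log2 difference was 0.005, whereas that of NFIB stayed at -0.09.

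**Figure D2:**
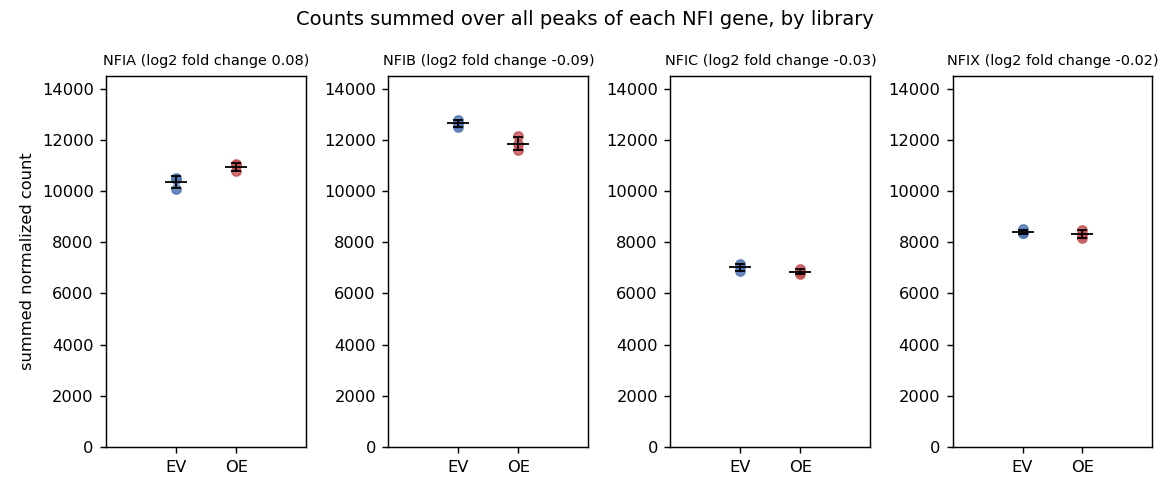
Normalized counts summed over all peaks of each NFI gene (vertical axis, from 0) in the 3 empty vector (EV) and 3 HMGB2 OE (OE) libraries; points are libraries, and black bars give the mean ± SD. NFIA is slightly higher and NFIB slightly lower in all 3 HMGB2 OE libraries, and no gene passed the test.

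The difference between genes was examined on the log2 ratio of 2 sums within each library, over 6 pairs. NFIA over NFIB was -0.31 to -0.27 in empty vector and -0.14 to -0.10 in HMGB2 OE libraries, a difference of 0.17 with no overlap. NFIA over NFIC differed by 0.11 and NFIA over NFIX by 0.10, also without overlap. All 3 pairs include NFIA, whose own sum separated the groups, so they are not independent. The NFIB sum also separated the groups, in the opposite direction. The share of separated ratios over other gene pairs was not computed. With 3 libraries against 3 the two-sided exact permutation test cannot go below p = 0.1, and these 3 pairs had p = 0.1 (adjusted p = 0.2). The remaining 3 pairs had exact permutation p-values of 0.2, 0.3 and 0.6. No pair could therefore pass 0.05 in this design.

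Accessibility per kb of gene body was highest in the shortest gene. In empty vector cells the normalized count per kb was 68.8 ± 2.85 for NFIX, 40.7 ± 0.198 for NFIC, 32.3 ± 1.02 for NFIB and 14.5 ± 0.254 for NFIA (SD, n = 3). The order was the same in HMGB2 OE cells, with 65.5 ± 1.69, 39.3 ± 0.354, 29.3 ± 1.12 and 15.01 ± 0.206, and in both conditions neighbours in the order were separated by more than their spread. The single strongest peak held 10.5% of the summed count in NFIA and 13.7% in NFIB, compared with 24.1% in NFIC and 23.4% in NFIX.

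Promoters were compared at the most accessible peak within 3 kb of a start site of each gene. At NFIB (chr9:14322449-14322950, 0.4 kb upstream of a start) the libraries had 1780, 1941 and 1686 normalized counts in empty vector and 1573, 1609 and 1494 in HMGB2 OE cells. The groups did not overlap, with a log2 difference of -0.21 ± 0.08 (SE) and an adjusted p of 0.097. NFIA (chr1:61076831-61077332, 0.2 kb upstream of a start) had 1065, 1062 and 1116 against 1114, 1124 and 1102. These overlapped, and the log2 difference was 0.04 ± 0.08. The NFIX peak (chr19:13022845-13023346) had 617, 608 and 532 against 593, 562 and 491, a log2 difference of -0.09 ± 0.10, and the NFIC peak (chr19:3366178-3366679) had 562, 576 and 488 against 457, 478 and 448. In NFIC every HMGB2 OE library was lower, at -0.23 ± 0.10, with an adjusted p of 0.158. This NFIC peak lies near a GENCODE start site, and is not among the peaks within 3 kb of the RefSeq start of NFIC (chr19:3359630). These peaks were 502 bases wide, so these levels compare per length. The order in empty vector cells was NFIB, NFIA, NFIX and NFIC, and the last pair did not differ beyond their spread. The 28 peaks near NFI start sites had a median log2 fold change of -0.04, the same as the -0.04 of all promoter peaks.

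Distal peaks, more than 3 kb from any annotated start site, reached levels as high as the promoters. The strongest peak of the family lay in an NFIX intron (chr19:13053715-13054216), with 1850, 1987 and 2092 normalized counts in empty vector and 1984, 1876 and 1951 in HMGB2 OE cells. The groups overlapped (log2 difference -0.03 ± 0.07), and the peak was above 99.2% of all tested peaks. In another NFIX intronic peak (chr19:13060320-13060821) the means were 1402 ± 91.8 and 1454 ± 13.2. The strongest NFIC peak, intronic at chr19:3450864-3451365, had 1694, 1743 and 1845 against 1659, 1494 and 1573. Its HMGB2 OE libraries were all lower, though the log2 difference of -0.16 ± 0.08 did not pass (adjusted p = 0.214). A second NFIC peak, centred in a coding exon (chr19:3434949-3435450), had 848 ± 41.0 and 804 ± 17.97. The NFIA peaks, upstream at chr1:60833112-60833613 and intronic at chr1:61286909-61287410, had 1074 ± 141 and 866 ± 76.0 in empty vector against 1149 ± 63.6 and 886 ± 44.1 in HMGB2 OE cells. Neither NFIA peak separated the groups.

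**Figure D3:**
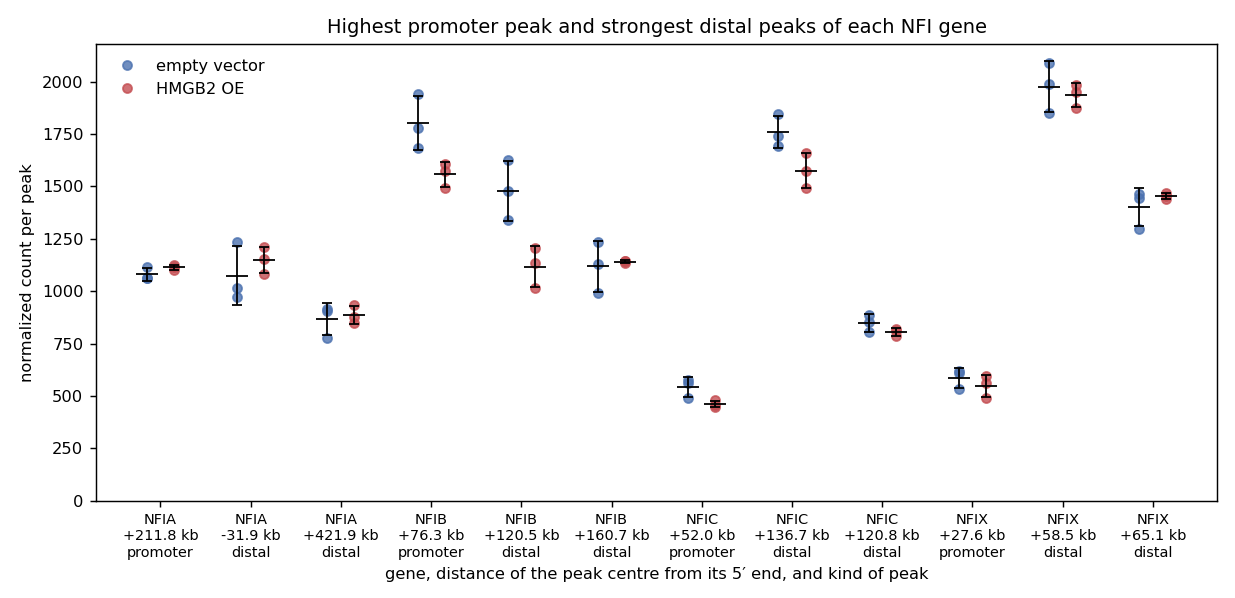
Normalized counts (vertical axis, from 0) in the highest promoter peak and the 2 strongest distal peaks of each NFI gene; points are the 3 empty vector (blue) and 3 HMGB2 OE (red) libraries, black bars the mean ± SD, and labels give the distance of the peak centre from the 5′ end of the gene. The NFIB distal peak at 1481 normalized counts in empty vector cells and 1117 in HMGB2 OE cells is the only 1 of these 12 peaks with an adjusted p-value under 0.05.

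NFIB held both called peaks. The peak that fell lies in an intron at chr9:14326341-14326842, 4.3 kb upstream of the start site next to the NFIB promoter peak described above, and its centre is also inside the lncRNA gene NFIB-AS1. It had 264, 283 and 315 normalized counts in empty vector and 172, 183.5 and 178 in HMGB2 OE cells. Every HMGB2 OE library was well below every empty vector library, with a log2 fold change of -0.69 ± 0.12 (SE; adjusted p = 0.0006). ATAC-seq does not mark strand, so accessibility there belongs to NFIB and NFIB-AS1 alike. The call was made under every alternative normalization, filter, GC correction and left-out library tried, with adjusted p-values up to 0.0084.

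The NFIB peak that rose is intergenic at chr9:13956082-13956583, 224.5 kb from the nearest NFIB start site and beyond the 3′ end of the gene. Its counts were low, at 52.8, 38.7 and 44.5 in empty vector and 88.4, 68.4 and 103.6 in HMGB2 OE cells. The groups did not overlap, and the log2 fold change was 0.94 ± 0.22 (adjusted p = 0.0091). Without empty vector replicate 2 the call was lost (0.83, adjusted p = 0.058), as it was without HMGB2 OE replicate 3 (0.81, adjusted p = 0.063).

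Another 6 peaks passed the adjusted p-value but not the fold limit, and are described knowing their values. The strongest of them was an NFIB intronic peak at chr9:14278246-14278747, which had 1338, 1625 and 1478 normalized counts in empty vector and 1205, 1133 and 1014 in HMGB2 OE cells. All 3 HMGB2 OE libraries were lower, with a log2 fold change of -0.41 ± 0.08 (adjusted p = 0.0035), and the adjusted p stayed at or below 0.043 in every alternative. A further strong NFIB intronic peak, at chr9:14238071-14238572, had 992, 1130 and 1236 against 1146, 1136 and 1143, and did not separate the groups (log2 difference 0.03 ± 0.08). The peaks of NFIB thus included falls beside a peak of similar height whose libraries overlapped.

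NFIX had a pair of adjacent peaks about 10 kb upstream of its 5′ end that rose together. The peak at chr19:12985238-12985739 had 284, 263 and 284 normalized counts in empty vector and 354, 357 and 371.5 in HMGB2 OE cells (log2 fold change 0.38 ± 0.11, adjusted p = 0.029). Its neighbour at chr19:12985765-12986266 had 271, 225 and 275 against 374, 334 and 391 (0.52 ± 0.12, adjusted p = 0.0062). In both, all HMGB2 OE libraries were higher. The pair are so close that they may share fragments, and they are not independent. One more peak nearby, at chr19:12983394-12983895, had 698, 665 and 606 against 559, 573 and 516, a log2 difference of -0.25 ± 0.09 that did not pass (adjusted p = 0.098). Within the NFIX body, an intronic peak at chr19:13037091-13037592 fell from 795, 872 and 826 to 689, 609 and 620 (-0.38 ± 0.09, adjusted p = 0.0077). Leaving out empty vector replicate 2 took the adjusted p of the rising pair to 0.122 and 0.058, and leaving out HMGB2 OE replicate 2 took that of the intronic peak to 0.056. The first of the pair also missed the threshold without HMGB2 OE replicate 1 (0.086), 2 (0.078) or 3 (0.076) and with GC offsets (0.060).

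NFIC had 2 intronic peaks of this kind, both higher. One lies 0.7 kb downstream of an NFIC start site (chr19:3360145-3360646) and had 125, 128 and 131 normalized counts in empty vector against 169, 229 and 163 in HMGB2 OE cells (log2 fold change 0.55 ± 0.15, adjusted p = 0.021). The other, at chr19:3403778-3404279, had 151.5, 151.4 and 163.8 against 251.6, 220.2 and 198.1 (0.53 ± 0.13, adjusted p = 0.014). No library of 1 condition overlapped the other in either peak. For the first, the adjusted p was 0.055, 0.067 and 0.196 when empty vector replicate 1, empty vector replicate 2 and HMGB2 OE replicate 2 were left out. For the second it was 0.059 and 0.115 without empty vector replicate 2 and HMGB2 OE replicate 1.

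**Figure D4:**
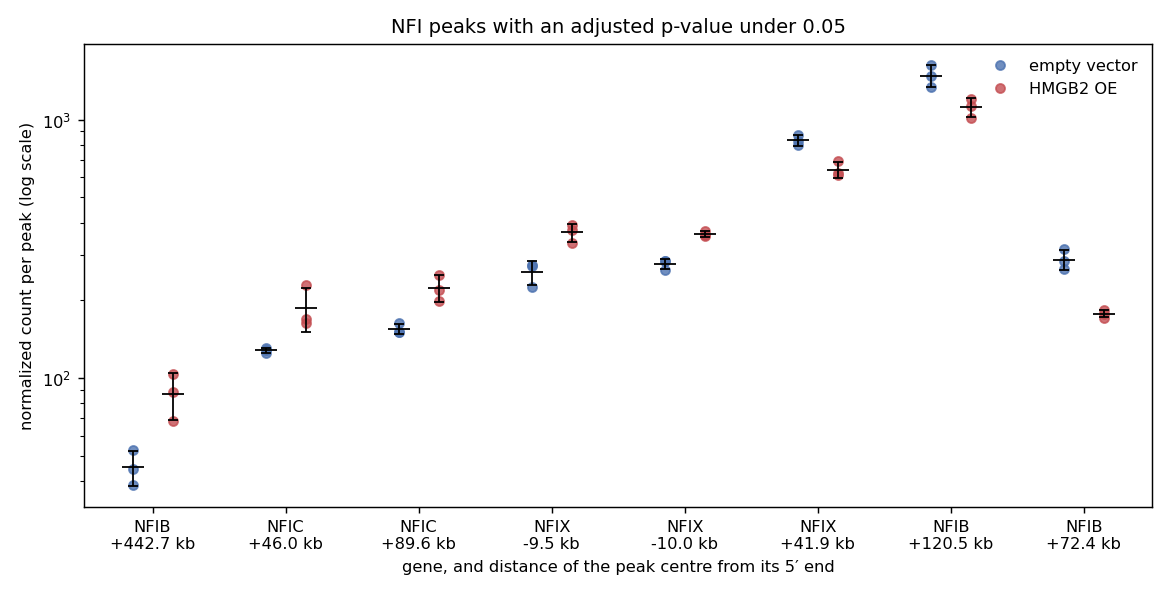
Normalized counts on a log scale (vertical axis) of the 8 NFI peaks with an adjusted p-value under 0.05, ordered by log2 fold change from left to right; points are the 3 empty vector (blue) and 3 HMGB2 OE (red) libraries, black bars the mean ± SD, and labels give the distance of the peak centre from the 5′ end of the gene. The first 5 peaks are higher and the last 3 lower in HMGB2 OE cells, without overlap between the groups.

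Level and direction went together among NFI peaks. Of 25 NFI peaks with a mean of at least 500 normalized counts, a limit chosen after the values were seen, 7 had a log2 fold change above 0, none had all HMGB2 OE libraries above the others, and 9 had all of them below. Their median was -0.09. The 20734 peaks of the whole table at this level had a median of -0.06, with 31.2% above 0, and in 6.73% and 21.0% of them all HMGB2 OE libraries lay above and below the others. Among the 105 weaker NFI peaks 61 (58.1%) were above 0, with a median of 0.05, beside 52.1% and a median of 0.01 for all weaker peaks. Precision also followed the level, since the SE of the log2 fold change ranged from 0.07 to 0.36 over the 130 peaks. At the largest SE, in an NFIA peak at chr1:61403834-61404335, counts of 32.0, 21.5 and 17.6 against 62.1, 21.7 and 51.8 gave a log2 difference of 0.94 with an adjusted p of 0.113.

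The NFI palindrome itself was looked for in the peaks as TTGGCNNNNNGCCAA. None of the 130 NFI peaks held it, and 114 of the 150117 tested peaks (0.0759%) did. The half-site was present in 57.7% of NFI peaks and 62.5% of all tested peaks, and the AP-1 word in 20.8% and 28.0%. Of the 114 peaks with the palindrome, 2 rose and 2 fell (1.75% in each direction), with a median log2 fold change of 0.03. The risers lay in the bodies of SH3RF2 (123 ± 32.7 to 218 ± 26.9 normalized counts) and PTPRU (108 ± 15.1 to 165 ± 18.6). Those that fell lay in KCNIP4 (125 ± 21.6 to 81.9 ± 14.6) and nearest to VIPR2 (311 ± 41.7 to 204 ± 17.7). The word is a match of letters only and does not show that an NFI protein bound there.

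Genes that act with or upstream of NFI factors were taken as a list of 6, namely SOX9, which induces NFIA in the glial lineage, POU3F2 (BRN2), a neural factor also found in melanoma, NOTCH1 and its DNA-binding partner RBPJ, the pioneer factor FOXA1 and the corepressor SKI. Their 188 tested peaks held 6 that rose (3.19%) and 4 that fell (2.13%), beside the same 1.87% and 1.44% of all tested peaks, with a median log2 fold change of 0.01, and none of the 6 gene sums passed the test. SOX9 held 7 of these peaks, all intergenic. The closest to its start, 30.7 kb away, had 125, 135 and 145 normalized counts in empty vector and 245, 211 and 240 in HMGB2 OE cells, with no overlap (log2 fold change 0.77 ± 0.13). In all, 4 SOX9 peaks rose and 3 fell, and the SOX9 sum was 16007 ± 426 against 16860 ± 289 (adjusted p = 0.254). POU3F2 had 1 peak higher, 509.9 kb from its start (27.9 ± 4.30 to 58.1 ± 1.43), and RBPJ had 1 higher (78.3 ± 11.5 to 129 ± 26.2) and 1 lower (62.3 ± 10.4 to 34.1 ± 9.49).

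A list of 15 genes known as NFI targets in brain, bone or other tissues had 212 tested peaks, of which 7 rose (3.30%) and 2 fell (0.943%), beside 1.87% and 1.44% of all tested peaks. Their median log2 fold change was 0.04. Of the 15 gene sums 3 were higher, none was lower and 12 did not pass, where 5.74% of all gene sums were higher and 3.51% lower. This list and the partner list were chosen with earlier results of these data known, so their shares are a description only. APCDD1, a Wnt inhibitor induced by NFIA and SOX9 in glial precursors, rose from 530 ± 13.8 to 697 ± 19.2 summed normalized counts (log2 fold change 0.39 ± 0.07, adjusted p = 0.0033), and 2 of its 9 peaks were called higher. FABP7, a fatty acid-binding protein of radial glia, rose from 386 ± 37.4 to 519 ± 20.1 (0.42 ± 0.09, adjusted p = 0.0089). This sum was over 2 peaks, neither of which was called. NFASC, a cell adhesion protein of axons, rose from 4482 ± 218 to 5107 ± 131 (0.19 ± 0.04, adjusted p = 0.0098). A peak in the NFASC body at chr1:204889711-204890212 showed the largest rise among the called peaks of the list, from 55.6, 34.4 and 50.3 to 127.5, 106.8 and 123.8 normalized counts, and its libraries were far apart (log2 fold change 1.38 ± 0.20).

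Other targets had called peaks without a called sum. ZCCHC24 had 2 peaks higher in its body, at 236 ± 18.6 to 407 ± 54.3 and 132 ± 21.2 to 211 ± 40.7 normalized counts. SLC1A3, the glial glutamate transporter, had 1 higher (79.4 ± 23.1 to 133 ± 15.7). CDH2, which encodes N-cadherin, had 1 distant intergenic peak higher (36.8 ± 12.02 to 72.1 ± 3.90) and 2 lower (310 ± 33.6 to 196 ± 33.2 and 290 ± 25.8 to 186 ± 34.7). The rest of the list, GFAP, CNTN2, EPHB1, GABRA6, MMD2, HES1, SP7, S100B and EZH2, had no called peak.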

How the data were processed

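The deposited table held raw counts of reads per peak for each library, which the authors made without normalization or pooling of replicates. Per the paper's methods and the labels, reads were trimmed (Trim Galore 0.6.7, cutadapt 4.0), mapped to hg38 (Bowtie 2) and deduplicated (Picard). MACS2, with published melanocyte data as the control, gave the peaks, which the authors cleared of blacklisted regions, merged where close and counted with featureCounts. A Tn5 shift and the treatment of multi-mapping reads are not given in the sources used here. Coordinates are printed as in the table, whose lowest start is 0, so starts may be 0-based.

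Counts were fitted with edgeR 4.0.16 (R 4.3.3; filterByExpr, TMM, quasi-likelihood F test without covariates, Benjamini-Hochberg adjustment over 150117 peaks or, for counts summed per gene, 17883 genes). TMM factors were 0.975 to 1.02, and a shift shared by most peaks would be removed by this scaling. Normalized counts are counts divided by effective library size, multiplied by the mean effective size. The SE was taken from F and the log2 fold change. DESeq2 1.42.0 was an alternative. Libraries of 1 condition differed by more than sampling noise (chi-square per degree of freedom 2.50 to 4.66). The scripts were tested on simulated data.

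Peaks were annotated with GENCODE release 44 and the hg38 sequence. Named peaks were the highest promoter peak of each gene, its 2 distal peaks of highest mean, and every called peak. Peaks that passed the adjusted p-value only were added after their values were seen. So were the further NFIX peak near the rising pair and the NFIA peak with the largest SE. A peak near a RefSeq start site of NFIB was also added. Genes of the partner and target lists were given with values where they had a called peak or a called sum. A marker gene and the sequence of 1 peak are not reported here. The members and lists were chosen with earlier results of these data known.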

Additional observations from a re-analysis of the deposited data

How the results depend on the processing

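Other normalizations, filters, GC offsets, left-out libraries, fold limits and peak assignments were tried. The count of 1 NFI peak called higher became 2 with total counts only and with GC offsets, with or without the replicate block, 3 after centring on peaks within 5 Mb, 5 with no fold limit or a lower one, and 1 to 2 when a library was left out. The count called lower was 3 with either lower fold limit and 1 to 2 when a library was left out. A count of 1 did not always mean the same peak: without empty vector replicate 2 it was an NFIA intronic peak. Local centring turned the sums of NFIC (0.016) and NFIX (0.060) above 0 on the log2 scale, and neither then passed the test; by its construction it subtracts the median of the surrounding peaks. The NFI median of 0.02 was -0.03 without empty vector replicate 3 or HMGB2 OE replicate 2 and -0.009 after local centring, so its sign is not settled. Among the strong distal peaks, 3 changed direction, and the lowest adjusted p-value of these in any setting was 0.567. The peak at chr1:61286909-61287410 of NFIA ranged from -0.035 (without empty vector replicate 1; -0.009 without HMGB2 OE replicate 1) to 0.071 and was -0.044 after local centring. The NFIB peak at chr9:14238071-14238572 ranged from -0.048 (without empty vector replicate 1) to 0.1002, and the NFIX peak at chr19:13053715-13054216 from -0.072 to 0.010 (without empty vector replicate 3) and was 0.048 after local centring. Except for the reversals of NFIC and NFIX, no gene sum changed its direction or passed the threshold in any alternative. No highest promoter peak did so in the alternatives checked for it, which left out local centring. The median that local centring subtracts at NFIA, 0.07, is larger than the 0.04 of its highest promoter peak, so that direction is not settled.

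Whether replicate numbers pair the libraries was not settled. Deviations of same-numbered libraries correlated at -0.09, 0.18 and 0.13, and those of differently numbered libraries at -0.27 to 0.15. With the replicate block, 1 NFI peak was called higher and 1 lower, as without it, while calls over all peaks went from 2800 to 3192 higher and from 2166 to 2383 lower. Not every library correlated best with its own number.

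The comparison rests on 1 line per condition and 3 technical replicates. Depth limits the weak peaks most, since their SE was the largest. Assigning intergenic peaks to the nearest start site does not show which gene they act on.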

Other observations

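RefSeq lists an NFIB start site at chr9:14532077, upstream of the GENCODE body used here. The peak at chr9:14530651-14531152, counted as intergenic, lies within 3 kb of it and had a mean of 79.9 ± 6.82 (SD, n = 3) for empty vector libraries, compared with 69.4 ± 8.35 for HMGB2 OE (normalized counts; log2 difference -0.19, adjusted p = 0.626).

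Among 4736 other genes with at least 10 tested peaks, the summed profile most like that of NFIA over the 6 libraries was ACSS3 (Pearson r = 0.995), followed by TNFRSF19 and FREM2 (0.991 each). For NFIB the nearest were FAM240B (0.997), ADD3 and PHLDB2 (0.989 each). For NFIC they were ZNFX1 (0.988), BICDL2 (0.983) and POLR2A (0.982), and for NFIX TMEM266 (0.977), DDHD1 (0.976) and ACTN4 (0.936). With 6 libraries that share depth and condition and so many genes searched, such values are a description only. Of these 12 genes, ACSS3 (log2 difference 0.19, adjusted p = 0.025) and TNFRSF19 (0.19, adjusted p = 0.011) were higher and ADD3 (-0.17, adjusted p = 0.021) was lower in HMGB2 OE cells. Over all gene sums, 5.74% were called higher and 3.51% lower. The 12 genes were picked for likeness over the same libraries, so calls in the direction of the member are partly built into the choice.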
